A study of Mus musculus with 3 samples.

Results

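Mesothelial cells of the sinoatrial node region were described in a library sorted for a pacemaker reporter. A barcode was taken as mesothelial when it had at least 500 detected genes, at least 10 UMIs (unique molecular identifiers, 1 per captured transcript) summed over Upk3b, Upk1b, Msln and Krt19, and fewer than 4 UMIs summed over the endothelial genes Pecam1 and Cdh5. The rule kept 477 of the 3300 cells of the GFP-positive library (14.5%, exact binomial interval 13.3 to 15.7%), out of 7633 cells with at least 500 genes in the 3 libraries of the study. The cells were chosen by measured values, so the levels of these 6 genes, and every comparison of the chosen cells with the others, are a description without a test.

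All animals were ICR mice at postnatal day 2 with the genotype HCN4H2BGFP, in which a nuclear fluorescent protein reports the gene of the pacemaker channel HCN4. Cells were taken from the sinoatrial node region, the right atrial tissue in which the heartbeat starts. The GFP-positive library (HCN4-GFP+ FACS sorted) held the reporter-positive cells of a flow cytometric sort, and the GFP-negative library the reporter-negative ones. The RA library was unsorted, and its title (RA) and its tissue label (sinoatrial node region) name different tissue. Each group was 1 library, the number of animals in each is not given in the labels, and the intervals below cover counting error only.

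Mesothelium is the thin epithelium that lines the body cavities and covers the organs within them, and the epicardium is the mesothelium of the heart. Both share Wt1, uroplakins, mesothelin and simple keratins, while epicardial cells are also known for the transcription factors Tbx18 and Tcf21. Mesothelium of the pericardial sac, the lung and the great vessels lies beside the sinoatrial node. Hox genes, which mark position along the body axis, are known from the mesenchyme of neck and lung, where Hoxa5 acts in lung development.

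The label was first set against 16 mesothelial markers, 4 of which chose the cells. In 462 of the 477 cells, forming 7 of 8 sub-clusters, all 16 markers were at least 2-fold above the other cells of the library and were read in at least 20% of the sub-cluster's cells. The remaining sub-cluster, of 15 cells, met this for 7 of 16 markers and went against the label, as set out below. Wt1, a zinc finger factor of mesothelium that the rule did not use, was read in 92.9% of the mesothelial cells and 14.9% of the others. Per 10000 UMIs of a cell, Wt1 ranged from 0 through a median of 2.93 to 11.9, and Upk3b from 0 through 18.6 to 73.9. Few cells lay near the limit of 10 marker UMIs. The 42 mesothelial cells with 10 to 19 marker UMIs had Wt1 in 81.0%, and 7 of the 15 cells of the deviating sub-cluster were among them. Just outside, 28 cells with 5 to 9 marker UMIs had Wt1 in 35.7%. A further 69 cells had enough marker UMIs but at least 4 endothelial UMIs. They had a median depth of 29600 UMIs and Wt1 in 89.9%, and were counted among the other cells.

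The 3 libraries held 19975326 to 50416748 UMIs, and mesothelial cells had a median of 14100 UMIs and 3661 genes against 12084 and 3402 in the other cells. Their median mitochondrial share was 2.56%, against 3.12%. The GFP-positive and GFP-negative libraries shared 19 barcodes, 2 of them mesothelial. Transcripts typical of one class were also read at low levels in others: Upk3b was read in 42.7% of 2440 endothelial cells, with an upper quartile of 0.782 per 10000 UMIs, and the lymphatic chemokine Ccl21a in 75.9% of mesothelial cells. A low level of a gene that is abundant elsewhere in the library is therefore not read as expression.

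Against all 2823 other cells, mostly endothelial, the mesothelial cells carried an epithelial and secretory profile with fibrillar collagens, and had low levels of endothelial regulators. Levels are counts per 1000000 UMIs (CPM) after summing over cells, and a gene counted as higher or lower at a ratio of at least 2 with at least 5 CPM in either group. Of 10901 genes measured, 1269 were higher (11.6%) and 1393 lower (12.8%), with a median log2 ratio of -0.14. Outside the rule's genes, the largest ratios included Krt14, a keratin of stratified epithelium, at 109 against 4.27 CPM, and Gjb5, a connexin of gap junctions, at 158 against 6.65 CPM. Lgals7, a galectin of epithelia, stood at 1011 against 47.5 CPM, Dmkn, a secreted epidermal protein, at 1197 against 58.7 CPM, and the chemoattractant Rarres2 (chemerin) at 2105 against 105 CPM. Rspo1, a secreted enhancer of Wnt signalling, stood at 415 against 21.0 CPM and was read in 95.2% of mesothelial cells. The size of the 25 highest ratios depended on the comparison cells: their log2 ratios were 4.22 to 4.67 here, 4.97 to 7.37 against endothelial cells alone, and 2.24 to 3.21 when cells with any Pecam1 or Cdh5 UMI were moved to the comparison cells. The lowest ratios were those of genes high in the library's endothelial cells. They included the transcription factors Ebf1 (16.6 against 348 CPM), Lmo2 (17.7 against 305 CPM) and Sox17 (4.37 against 72.3 CPM) and the VEGF receptor Flt1 (12.3 against 208 CPM). Ebf1 was not particular to endothelial cells, as fibroblasts of the GFP-negative library had it at 330 CPM.

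Of the 33 measured genes for keratins, uroplakins and junctions, 18 were higher and 4 lower, with a median log2 ratio of 1.33. Krt7 (440 against 24.5 CPM) and Krt8 (221 against 14.2 CPM) are keratins of simple epithelium, and Cldn10 (141 against 10.5 CPM) and Cldn15 (375 against 43.3 CPM) are tight junction claudins. The polarity genes Pard6b (42.4 against 2.62 CPM) and Crb2 (22.8 against 1.29 CPM) were also higher, and Ezr, which ties actin to microvilli, stood at 386 against 46.6 CPM. The endothelial claudin Cldn5 was lower, at 61.0 against 855 CPM. Krt5 and Cldn4 were counted as higher, but without the deviating 15 cells they stood at 0.38 and 1.15 CPM. Of 22 lung, foregut and other organ factors 4 were measured and all 4 were higher: Sox9 (23.6 against 4.08 CPM) kept 21.7 CPM without those 15 cells, while Nkx2-1, Foxa1 and Sox2 were each left with 0.26 CPM.

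Among 19 measured mesothelial and epicardial transcription factors, 11 were higher and 2 lower. Wt1 stood at 314 against 23.7 CPM, Osr1, a zinc finger factor of lateral mesoderm, at 312 against 17.6 CPM, and Bnc1 (basonuclin) at 54.3 against 3.51 CPM. Tbx18 stood at 124 against 24.0 CPM and Tcf21 at 15.5 against 1.38 CPM. Of 16 measured heart transcription factors, 6 were higher and 5 lower, or 3 lower with 5 marker UMIs as the limit or against endothelial cells alone. Gata5 (30.7 against 7.32 CPM), Isl1 (39.5 against 6.15 CPM) and Tbx2 (14.5 against 2.81 CPM) were higher, whereas the cardiomyocyte factor Nkx2-5 (1.21 against 17.7 CPM) and the sinoatrial factor Shox2 (1.21 against 37.8 CPM) were lower. Gata6 (250 against 148 CPM) and Hand2 (37.6 against 41.3 CPM) lay between. Of 13 measured pacemaker genes, 3 were higher, namely Isl1, Tbx18 and the matrix protein gene Smoc2 (63.6 against 27.5 CPM), and 8 lower, with a median log2 ratio of -1.60. Only 2 were lower with 5 marker UMIs as the limit or against endothelial cells alone, and 5 with at most 10% mitochondrial UMIs. These genes overlap with the factor lists, which were not independent of each other.

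Retinoid genes included enzymes for retinoic acid synthesis. Aldh1a2, the main embryonic retinaldehyde dehydrogenase, stood at 189 CPM with a log2 ratio of 3.97, Aldh1a1 at 106 against 14.6 CPM, and Rbp4, the retinol carrier, at 147 against 8.49 CPM. Without the deviating 15 cells Aldh1a1 stood at 80.6 CPM. In all, 6 of 15 measured retinoid genes were higher and 2 lower. Of 23 measured complement and defence genes, 15 were higher and 4 lower, with a median log2 ratio of 1.43. C3, the central complement protein, stood at 1600 against 85.7 CPM, C2 at 293 against 15.2 CPM, and Serping1, the C1 inhibitor, at 713 against 76.0 CPM. C1ra and C1s1, at 195 against 10.5 CPM and 237 against 13.4 CPM, have close copies (C1rb and C1s2) that were also higher, so the split between copies is uncertain. The complement regulator Cd59a was lower, at 52.5 against 259 CPM.

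Of 42 measured secreted signals, 15 were higher and 10 lower. The fibroblast growth factors Fgf9 (30.2 against 1.72 CPM) and Fgf1 (122 against 10.3 CPM), Wnt5a (76.1 against 5.75 CPM), Bmp7 (48.2 against 6.99 CPM), Sema3c (97.5 against 6.61 CPM) and Il33 (146 against 16.8 CPM) were higher. Tgfb1 (22.3 against 178 CPM), Bmp4 (59.1 against 210 CPM), the Notch ligand Jag1 (7.29 against 81.2 CPM) and endothelin Edn1 (34.9 against 266 CPM) were lower. Igf2, a fetal growth factor, lay between at 245 against 467 CPM. Of 34 measured surface receptors, 9 were higher and 12 lower. Egfr (11.3 against 1.10 CPM), Fzd2 (44.1 against 10.3 CPM) and Fgfr2 (19.8 against 6.96 CPM) were higher, and Notch1 (17.2 against 101 CPM) and Pdgfra (5.46 against 25.2 CPM) lower.

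Matrix genes divided by kind. Of 49 measured, 17 were higher and 11 lower. The chains of the collagen IV network found in specialised basement membranes, Col4a3 to Col4a6, were all higher (Col4a6 at 22.3 against 4.22 CPM), and the widespread chains Col4a1 (62.5 against 213 CPM) and Col4a2 (52.6 against 134 CPM) lower. Efemp1, a fibulin, stood at 248 against 14.6 CPM, Igfbp6 at 1870 against 117 CPM, and Has1, a hyaluronan synthase, at 95.7 against 5.20 CPM. Elastin (Eln) was lower, at 1968 against 12392 CPM.

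Of 27 transition and mesenchymal genes, 9 were higher and 5 lower. Col1a1 (2913 against 238 CPM), Col3a1 (5467 against 668 CPM) and Dcn (4539 against 433 CPM) were higher, whereas Postn (20.6 against 161 CPM), Acta2 (28.5 against 73.8 CPM) and Zeb1 (15.8 against 45.5 CPM) were lower. The fibroblasts of the GFP-negative library, another sample, had Col1a1 at 6985 CPM, Pdgfra at 71.8 CPM and Postn at 3002 CPM. The summed level of 8 fibroblast markers lay between 12185 and 17425 CPM in each of the 7 mesothelial sub-clusters, against 1410 CPM in endothelial cells. Over all mesothelial cells it was 15152 CPM, most of it from Col3a1, Dcn and Col1a1. Of the 8 markers 4 were at least 2-fold higher than in the other cells, and Pdgfra and Postn were lower.

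Transport and detoxification genes were higher in 14 of 28 and lower in 6. Slc9a3r1, a scaffold under the apical membrane, stood at 451 against 33.8 CPM, the monocarboxylate carrier Slc16a1 at 115 against 8.99 CPM, and the metallothionein Mt2 at 380 against 31.9 CPM. The fatty acid carriers Fabp4 (197 against 2221 CPM) and Cd36 (32.5 against 175 CPM) were lower. None of 23 cell cycle genes passed 2-fold in either direction, although 13 were lower among the 134 cells left when cells with 5 or more epithelial UMIs were taken out, and 1 of 23 dissociation stress genes did, Atf3 at 605 against 288 CPM. The stress list as a whole had a median log2 ratio of 0.43. Of 18 measured Hippo pathway genes, 3 were higher and 3 lower; Axl, a receptor kinase, stood at 83.8 against 22.9 CPM. Of 9 measured cilia genes, 3 were higher (Rsph1, Dynlrb2 and Tmem212). Without the deviating 15 cells only 1 cilia gene was higher, and Tmem212 stood at 0.26 CPM.

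**Figure D1:**
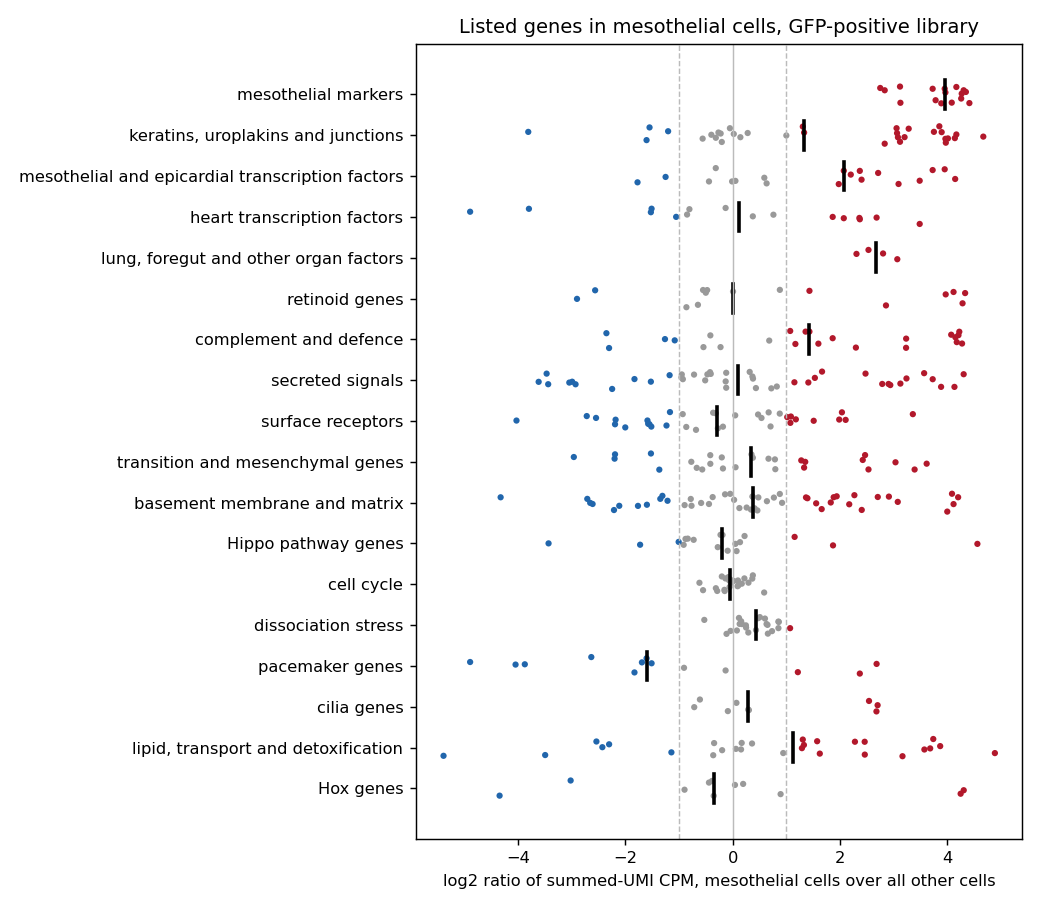
Each point is a measured gene of a list, placed by its log2 ratio of CPM between 477 mesothelial cells and 2823 other cells of the GFP-positive library; red points are at least 2-fold higher, blue points at least 2-fold lower, and black bars are list medians. The mesothelial markers have a median of 3.96 and the pacemaker genes a median of -1.60.

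The mesothelial cells were then grouped among themselves into 8 sub-clusters, numbered 0 to 7, of 15 to 122 cells. Genes that lead a sub-cluster define it and are given as its description. Sub-cluster 5, with 15 cells, was led by Lrrc26, Atp6v1c2 and Gp2 and by the basal keratin Krt5, and is called Scgb-high here after the secretoglobins, the secreted proteins of airway epithelium. Of 5139 genes at 20 CPM or more in it, 894 (17.4%) were at least 2-fold above the other mesothelial cells. Scgb3a2 stood at 90226 CPM in it against 313 CPM in the other mesothelial cells, Scgb3a1 at 84064 against 332 CPM, and Scgb1a1 at 21327 against 88.4 CPM. The lung and foregut factor Nkx2-1 was read in 15 of the 15 cells, Foxa1 in 14 and Sox2 in 12, and each had only 2 UMIs in the other 462 cells together. Nkx2-1 was 696-fold higher per UMI in the Scgb-high cells, with a counting interval of 186 to 5857. The pan-epithelial gene Epcam stood at 390 CPM in these cells against 21.5 CPM in the others.

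Mesothelial genes were low there. Wt1 had 2 UMIs in the 15 cells (4.81 CPM) against 330 CPM in the other mesothelial cells, a ratio of 68.5 by counts, and Upk3b stood at 36.1 against 2144 CPM. The cells met the rule chiefly through Krt19, at 753 CPM and in 15 of 15 cells. Their median depth was 24629 UMIs, and the macrophage set summed to 1716 CPM in them, 1711 of it from Lyz2, a lysozyme gene that was read in 6 of the 15 cells. The alveolar set summed to 1102 CPM in these cells, the ciliated set to 457 CPM and the squamous or basal set to 2121 CPM. Several genes were read in only part of the 15 cells: Krt5 in 10, Lrrc26 in 6, the surfactant gene Sftpd in 5 and Foxj1 in 1. Whether the 15 cells are of a single type was not tested.

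The summed level of 5 airway secretory markers was 700 to 762 CPM in each of the other 7 sub-clusters, 688 CPM in endothelial cells and 683 CPM in cardiomyocytes of the same library. Scgb1a1 was read in 74.0% of mesothelial cells, 66.1% of endothelial cells and 71.5% of 158 cardiomyocytes, whose median depths were 14100, 11717 and 18321 UMIs. In the GFP-negative library it was read in 0.528% of 2272 fibroblasts and in 0.529% of 189 endothelial cells, and in the RA library in 0 of 252 endothelial cells. The source of these transcripts was not tested. Outside sub-cluster 5 the alveolar set summed to 2.99 to 11.5 CPM and the ciliated set to 0 to 5.17 CPM. The thymic set summed to 2.13 to 12.2 CPM there, and the liver set to 7.47 to 15.8 CPM, against 156 CPM in endothelial cells. Alb, Adipoq and Foxn1 had no UMI in any mesothelial cell. Among those 7 sub-clusters the squamous or basal set was highest in sub-cluster 0, at 268 CPM. Over all 7 together Krt14 gave 106 of the set's 113 CPM.

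**Figure D2:**
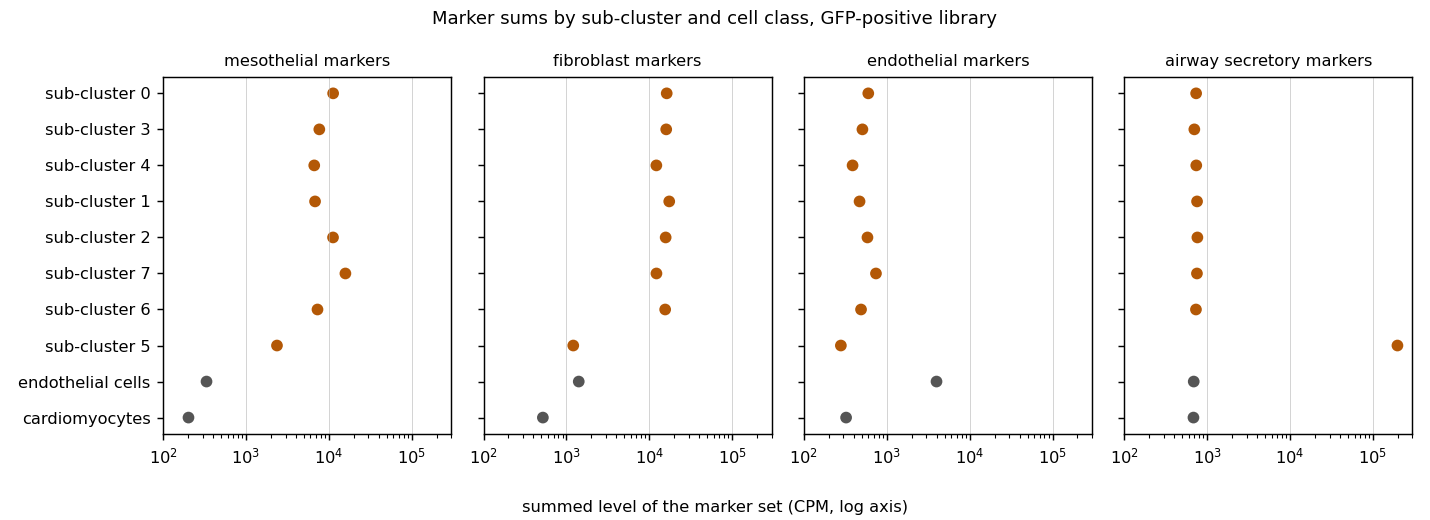
Summed CPM of 4 marker sets on a log axis, for the 8 sub-clusters of mesothelial cells (orange) and for endothelial cells and cardiomyocytes (grey) of the GFP-positive library. Sub-cluster 5 stands apart in airway secretory markers, while the other 7 lie at 700 to 762 CPM, near the endothelial cells and cardiomyocytes.

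Among the remaining cells the main contrast ran between Tbx18 and Hoxa5. The sub-clusters were put on 2 sides by a rule chosen after their values were seen: Tbx18 above Hoxa5 in CPM, or the reverse, with the Scgb-high cells (15) and a cycling sub-cluster (24) kept apart. The Tbx18 side held sub-clusters 0, 3 and 4 with 215 cells (45.1%), and the Hoxa5 side sub-clusters 1, 2 and 7 with 223 cells (46.8%). Median depths were 13390 and 13635 UMIs. Levels of mesothelial markers were close on both sides: Upk3b stood at 2190 CPM on the Tbx18 side and 2176 on the Hoxa5 side, Wt1 at 291 and 371 CPM, Lrrn4 at 270 and 233 CPM, and 15 of 16 markers lay within 2-fold, the exception being Krt8 (306 and 136 CPM). Over all genes, 544 of 10365 (5.25%) were at least 2-fold higher on the Tbx18 side and 583 (5.62%) on the Hoxa5 side.

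Of 13 measured heart transcription factors, 4 were higher on the Tbx18 side, 3 on the Hoxa5 side and 6 lay within 2-fold. Tbx18, which with Hoxa5 chose the sides, stood at 245 CPM there and 31.0 CPM on the Hoxa5 side. By sub-cluster it was 294, 198 and 173 CPM in sub-clusters 0, 3 and 4, and 21.3, 35.4 and 52.3 CPM in sub-clusters 1, 2 and 7, an order that the choice of sides largely fixed. Tcf21, an epicardial factor linked to the cardiac fibroblast lineage, had 127 UMIs on the Tbx18 side and 1 UMI on the Hoxa5 side, a ratio of 132 with a counting interval of 23.2 to 5248. Hand2 stood at 72.5 against 9.04 CPM and Tbx20 at 26.2 against 4.11 CPM. Gata4 (34.4 and 22.2 CPM), Gata6 (261 and 263 CPM) and Tbx5 (13.7 and 10.7 CPM) lay within 2-fold. Isl1, a factor of the venous pole and the sinoatrial node, was higher on the Hoxa5 side, at 74.8 against 3.70 CPM, and so was Tbx2, at 21.4 against 5.69 CPM.

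Other genes higher on the Tbx18 side included Hpgd, which degrades prostaglandins (180 against 3.01 CPM), the secreted matrix proteins Thbs2 (229 against 10.4 CPM) and Spon1 (55.5 against 4.66 CPM), the guidance ligand Slit3 (102 against 5.48 CPM) and Aldh1a1 (158 against 14.2 CPM). Aldh1a2 was also higher, at 286 against 127 CPM. The imprinted growth inhibitor Cdkn1c stood at 1365 against 200 CPM and the imprinted growth factor Igf2 at 391 against 133 CPM. Wnt5a (131 against 35.9 CPM), Vegfc (22.8 against 2.74 CPM) and Sfrp2 (146 against 24.9 CPM) followed. Of 43 measured secreted signals, 10 were higher on this side and 8 on the other.

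The 15 largest ratios on the Hoxa5 side included Isl1 and Hoxa5 and genes of varied function. Tnfrsf11b (osteoprotegerin, a decoy receptor) stood at 131 against 1.71 CPM, Rarres1 at 166 against 2.28 CPM, Slpi, a protease inhibitor of mucosal surfaces, at 541 against 13.4 CPM, and Krtdap, a keratinocyte protein, at 352 against 13.7 CPM. Fgf1 stood at 230 against 18.2 CPM, Bmp7 at 79.7 against 11.7 CPM, Igfbp2 at 333 against 29.3 CPM and Mfap5, a microfibril protein, at 773 against 76.5 CPM. The water channel Aqp5 stood at 103 against 7.97 CPM. Lgals7 (1560 against 610 CPM) and Dmkn (2108 against 418 CPM) were higher there too.

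Other Hox genes were also higher on the Hoxa5 side. Of 9 measured, 7 were at least 2-fold higher there and none on the other side, with Hoxa5 among the 7 by the choice of sides: Hoxa2 (16.2 against 0.28 CPM), Hoxa3 (14.2 against 2.84 CPM), Hoxa4 (9.86 against 1.42 CPM), Hoxa5 (186 against 10.8 CPM), Hoxb3 (7.67 against 3.41 CPM), Hoxc4 (40.3 against 1.14 CPM) and Hoxc5 (13.4 against 0.57 CPM). Hoxb2 (26.6 and 18.5 CPM) and Hoxb4 (22.7 and 17.4 CPM) lay within 2-fold. These 9 belong to the anterior paralog groups. Hoxd8 and Hoxd9, of later paralog groups, at 7.37 and 8.61 CPM in the other cells of the library, stood at 0.85 and 0.36 CPM in the mesothelial cells. Hoxc4 and Hoxc5 stood at 0.14 and 0.03 CPM in endothelial cells, against 40.3 and 13.4 CPM on the Hoxa5 side. Hoxa5 itself was not particular to these cells: endothelial cells had it at 57.0 CPM, above the 10.8 CPM of the Tbx18 side.

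Tbx18 and Hoxa5, which chose the sides, were also counted per cell over all mesothelial cells. These counts use the same cells and genes, so they are no separate evidence for the contrast. Tbx18 was read in 284 of the 477 cells and Hoxa5 in 232, and 95 had both. Hoxa5 was read in 33.5% of the cells with a Tbx18 UMI and in 71.0% of those without. After each cell was thinned to 2000 UMIs, 96 cells had Tbx18, 78 had Hoxa5 and 8 had both, and Hoxa5 was read in 8.33% of cells with Tbx18 and 18.4% of those without. In endothelial cells the order was the other way, 53.1% with and 35.5% without Tbx18. Within the Hoxa5 side, 71 of the 80 cells with a Tbx18 UMI also had Hoxa5, as did 81.8% of those without. Tbx18 stood at 31.0 CPM there, near the 20.8 CPM of endothelial cells and the 31.5 CPM of cardiomyocytes. These reads are therefore not taken as expression of both genes in a cell. Of 70 cells with a Tcf21 UMI, 63 also had Tbx18 and 8 had Hoxa5. Hand2 was read in 60.9% of cells on the Tbx18 side and 14.3% on the Hoxa5 side.

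**Figure D3:**
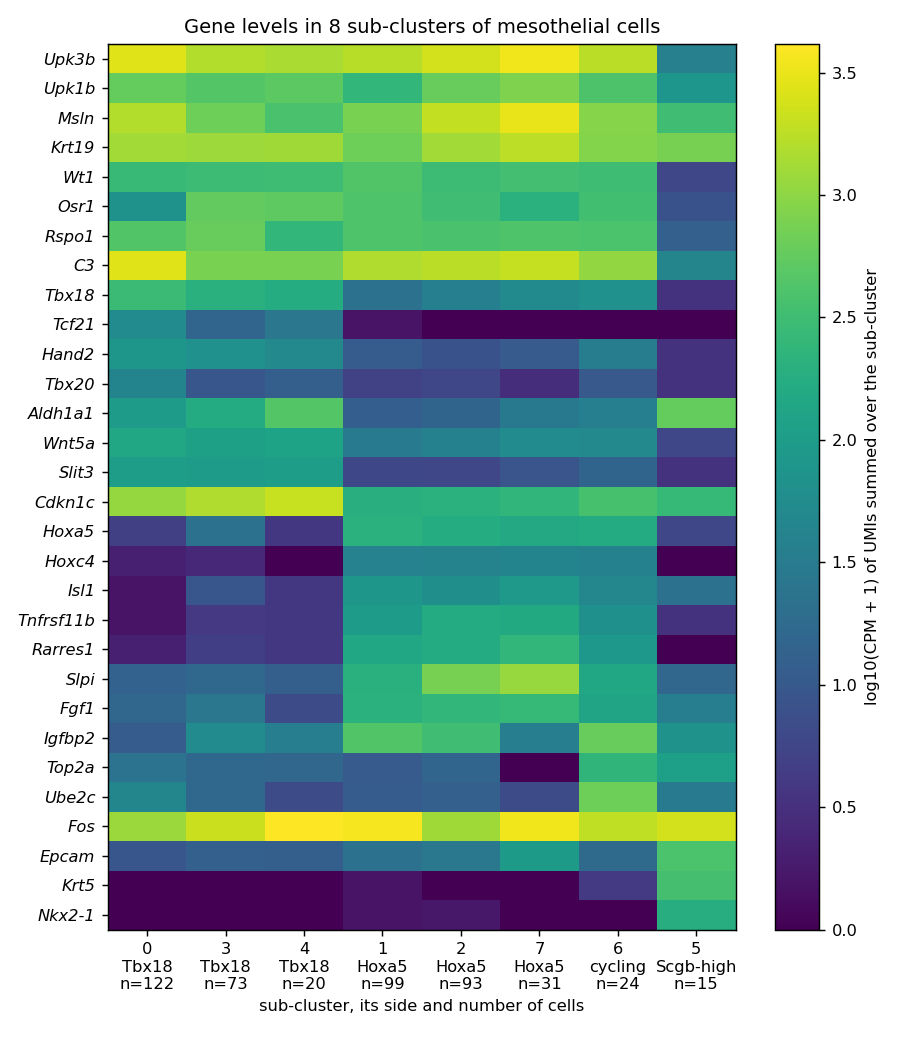
Level of 30 genes as log10(CPM + 1) in the 8 sub-clusters, ordered by side. Tbx18, Tcf21 and Hand2 are brighter in sub-clusters 0, 3 and 4, Hoxa5, Isl1 and Tnfrsf11b in 1, 2 and 7, and Wt1 is dark only in the Scgb-high sub-cluster 5, at 4.81 CPM.

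**Figure D4:**
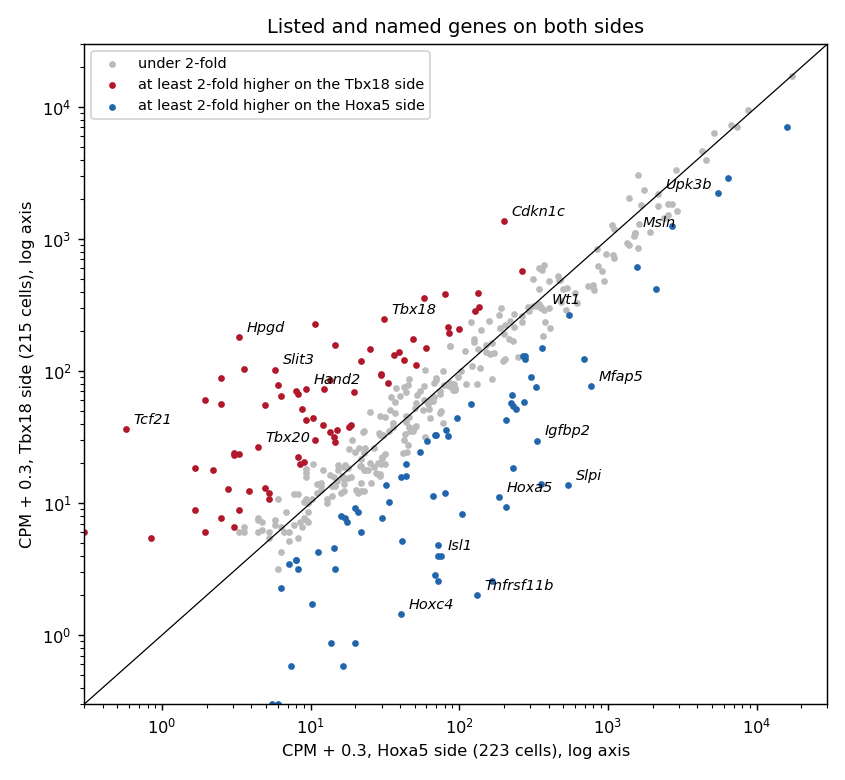
CPM on the Hoxa5 side (horizontal, 223 cells) against the Tbx18 side (vertical, 215 cells) on log axes for listed and named genes; the line marks equal levels and 0.3 CPM was added for display. Upk3b, at 2176 and 2190 CPM, lies on the line, with Tbx18 above it and Hoxa5 below it.

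On the Tbx18 side, sub-cluster 0 (122 cells) was led by Cst9 (94.4 against 0.47 CPM in the other mesothelial cells), the muscle actinin Actn3 (59.5 against 1.41 CPM), Slurp1 (329 against 8.44 CPM) and Lcp1 (65.5 against 2.50 CPM), with Tcf21 (54.0 against 4.53 CPM) and the placental cadherin Cdh3 (132 against 11.6 CPM) among its 10 leading genes. It had 244 genes (4.54%) at least 2-fold above the others. Sub-cluster 3 (73 cells, 2.43% of genes) was led by Khdrbs2 (40.4 against 3.91 CPM), Nrgn (335 against 44.8 CPM), the myosin kinase Mylk (74.8 against 10.7 CPM) and Sfrp2 (262 against 41.0 CPM). Sub-cluster 4 (20 cells, 10.9%) was led by Tagln, an actin-binding protein of smooth muscle (741 against 12.9 CPM), and had Ctgf, a YAP target (219 against 13.3 CPM), Thbs1 (1151 against 73.5 CPM), Tnc (26.0 against 1.65 CPM) and the chemokine Ccl2 (4073 against 294 CPM). Its smooth muscle or pericyte set summed to 958 CPM, of which Tagln gave 741, and its dissociation stress genes summed to 22921 CPM, against 11515 in sub-cluster 0. The part of stress in its profile was not tested.

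On the Hoxa5 side, sub-cluster 1 (99 cells, 3.95%) was led by the antigen presentation genes H2-Aa (76.4 against 10.3 CPM), Cd74 (169 against 24.5 CPM) and H2-Ab1 (51.7 against 9.24 CPM) and by Il6 (52.3 against 9.09 CPM). H2-Aa was read in 40.4% of its cells, and its macrophage set, at 46.5 CPM, was no higher than in the other mesothelial sub-clusters (44.3 to 66.4 CPM). Hoxa2 (22.4 against 4.93 CPM) was also among its leading genes. Its stress genes summed to 26122 CPM, above sub-cluster 4, and their part in its profile was not tested either. Sub-cluster 2 (93 cells, 2.02%) was led by Slpi (748 against 156 CPM), Krtdap (507 against 109 CPM), Tesc (106 against 25.8 CPM) and Tnfrsf11b (166 against 42.9 CPM). Sub-cluster 7 (31 cells, 5.48%) was led by Ren1, the renin gene (616 against 8.01 CPM, in 54.8% of its cells against 5.83%), Nkx6-2 (34.2 against 1.68 CPM), Spink2 (64.4 against 5.30 CPM) and Plet1 (274 against 23.1 CPM). It had the highest mesothelial marker sum, 15843 CPM, and the highest stress sum, 34296 CPM.

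Stress genes moved with the sides. The list summed to 14288 CPM on the Tbx18 side and 21278 CPM on the Hoxa5 side, and 3 of 23 genes (Nr4a1, Klf4 and Myc) were at least 2-fold higher on the Hoxa5 side; within the sides it ranged from 11515 to 22921 and from 10716 to 34296 CPM. Sub-cluster 2, on the Hoxa5 side, had the lowest stress sum of all 8 sub-clusters and Hoxa5 at 175 CPM. Cycling cells formed sub-cluster 6 (24 cells, 7.64%, median depth 24254 UMIs), led by Ccnb1 (162 against 3.56 CPM), Cenpf (203 against 5.54 CPM) and Ube2c (649 against 20.6 CPM). Its Hoxa5 level was 168 CPM and its Tbx18 level 65.7 CPM. With these cells apart, 6 of 20 cell cycle genes were at least 2-fold higher on the Tbx18 side. With cell cycle, stress and haemoglobin genes left out of the clustering, 20 of the 24 cycling cells joined the Hoxa5 side and 4 the Tbx18 side, and no cell cycle gene differed 2-fold. The order of cycling between the sides therefore depended on where these cells were counted.

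The sort was made on the reporter, and its transcript was read in a minority of mesothelial cells. GFP was read in 114 of 477 mesothelial cells (23.9%, exact interval 20.1 to 28.0%), in 38.6% of endothelial cells (36.7 to 40.6%) and in 64.6% of cardiomyocytes (56.6 to 72.0%). Thinned to 2000 UMIs a cell, the shares were 4.19%, 8.65% and 22.2%, in the same order. Of the other reporter features, hcn4-h2bG-3 was read in 1 mesothelial cell and hcn4-h2bG-10 in 0 of 477, which allows a share of cells with a UMI of up to 0.629% (3 of 477 cells; exact upper limit 0.770%). The endogenous gene Hcn4 was read in 1.68% of mesothelial cells, 2.25% of endothelial cells and 13.3% of cardiomyocytes, so its mesothelial share was not above that of endothelial cells. In the GFP-negative library GFP was read in 0.308% of fibroblasts and 3.70% of endothelial cells. Within the mesothelial cells GFP was read in 16.3% on the Tbx18 side (11.6 to 21.9%) and 30.9% on the Hoxa5 side (24.9 to 37.5%). After thinning to 2000 UMIs the shares were 3.26% (1.32 to 6.59%) and 5.38% (2.81 to 9.21%), from 7 and 12 cells. At 4000 UMIs they were 4.19% (1.93 to 7.80%) and 10.8% (7.02 to 15.6%). These intervals cover counting error over cells of 1 library and overlapped at both thinned depths. No difference between the sides is read from them. How much of the GFP signal in mesothelial cells was free RNA was not tested.

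**Figure D5:**
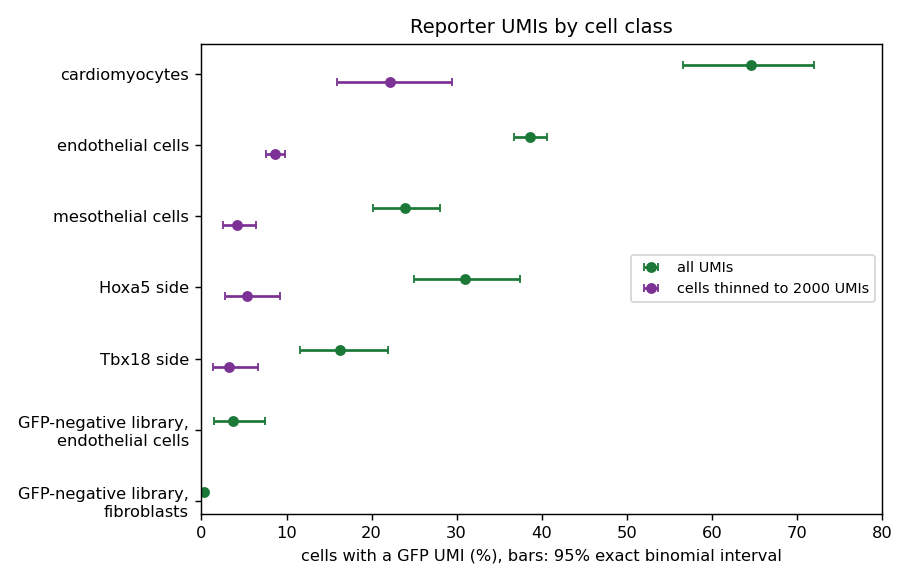
Share of cells with a GFP UMI by class, with all UMIs (green) and after thinning to 2000 UMIs per cell (purple, GFP-positive library only); bars are 95% exact binomial intervals. Mesothelial cells, at 23.9%, lie below endothelial cells at 38.6% and cardiomyocytes at 64.6%.

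Few cells met the mesothelial rule elsewhere: 17 of 3036 cells in the GFP-negative library (0.560%) and 2 of 1297 in the RA library (0.154%). The 17 cells had Upk3b at 1478 CPM, Wt1 at 468 CPM and Msln at 130 CPM. Hoxa5 was read in 10 of them, at 197 CPM (interval 138 to 275), Isl1 stood at 67.7 CPM and Rarres1 at 152 CPM, each near the level of the Hoxa5 side. Tbx18 was read in 2 of them, at 22.6 CPM, and Tcf21 in none, which allows up to 16.9 CPM (3 UMIs; exact upper limit 20.8 CPM). Other genes high on the Hoxa5 side of the GFP-positive library were low in these cells: Slpi (16.9 CPM), Krtdap (11.3 CPM), Tnfrsf11b (16.9 CPM), Aqp5 (11.3 CPM) and Tesc (5.64 CPM). Fgf1 (73.4 CPM) and Mfap5 (231 CPM) also lay below that side, at 230 and 773 CPM. Igfbp2 (784 CPM) and Clec11a (95.9 CPM) lay above it, at 333 and 71.2 CPM. The match with the Hoxa5 side was therefore mixed. The 2 RA cells, with 15561 and 3699 UMIs, had Tbx18 at 11 and 2 UMIs, Wt1 at 4 and 4 UMIs, Tcf21 at 0 and 2 UMIs and no Hoxa5 UMI, which over both cells allows up to 156 CPM (3 UMIs; exact upper limit 192 CPM). GFP was read in 1 of the 17 cells and in neither RA cell. With 17 and 2 cells from 1 library each, the make-up of mesothelium could not be compared between tissues.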

How the data were processed

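Single-cell libraries from mouse tissue were made with a 10x Genomics kit, per the labels' protocols. The authors deposited 3 matrices of unnormalised UMI counts, 1 for each library, made with Cell Ranger against the build mm9 per the submitters' processing notes. The version of Cell Ranger and the cell filter are not given in the sources used here. Strand and read depth before UMI counting are likewise not given in the sources used here.

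From these counts, cells with at least 500 genes were kept and classes assigned by the UMI rules above, with endothelial cells at 4 or more Pecam1 and Cdh5 UMIs and fewer than 10 mesothelial marker UMIs, cardiomyocytes at 50 or more UMIs of Tnnt2, Myl7, Actc1 and Myh6, and fibroblasts of the GFP-negative library at 20 or more UMIs of Col1a1, Col1a2, Dcn and Pdgfra, with endothelial and mesothelial cells left out. UMIs were summed over cells and given as CPM, and log2 ratios used 0.5 added UMIs. Intervals are exact Poisson or Clopper-Pearson intervals at 95% and cover counting error only, and a count of 0 is given with the limit of 3 counts; with 1 library per group no test was run. Sub-clusters were made with scanpy 1.11.5 from 2000 variable genes, 20 principal components, 15 neighbours and Leiden resolution 0.6. No doublets were removed, and the effect of the highest Scrublet scores is given in the closing section.

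The text names genes of 17 gene lists, the Hox clusters and 16 marker sets, the 25 highest and 15 lowest ratios (50 CPM and 25% of cells in the higher group as minimum), the 10 leading genes of each sub-cluster, and, by a rule added after the values were seen, the 15 largest ratios between sides. The cells, lists and marker sets were chosen with earlier results of these data known. The lists held 480 distinct genes that were found, and 3 further entries (Vegfd, Tead2 and Cfap298) were not found. On simulated counts the ratio step recovered its planted changes, all of them larger than the 2-fold limit. The simulation held counting error only, without variation between cells or free RNA. Some named genes are not reported here.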

Additional observations from a re-analysis of the deposited data

How the results depend on the processing

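With no replicate, 1 library carries each value, and the spread between animals is unknown. The number of mesothelial cells fell from 477 to 178 with Pecam1 and Cdh5 at 0 UMIs, and to 134 when cells with 5 or more UMIs of Epcam, Scgb1a1, Scgb3a2 and Cyp2f2 were left out, a limit that 343 cells met. With a 1 CPM filter, which admits more genes, 2049 genes in place of 1269 were higher in mesothelial cells, 1057 in place of 544 on the Tbx18 side and 1108 in place of 583 on the Hoxa5 side. Thinning to 4000 UMIs in place of 2000 gave GFP in 7.34% of mesothelial cells in place of 4.19%, and Tbx18 in 31.9% in place of 20.1%, since more UMIs are kept. A resolution of 0.3 gave 4 sub-clusters and 1.0 gave 13. Of 94 such values under the alternatives, the other 85 stayed within 1.5 times the main count or within its interval, and all 40 ratios named as highest or lowest stayed at least 2-fold in the same direction under 14 settings, although 149 of those 560 values moved in size. Of 504 counts of list genes higher or lower, 29 moved by more than 1.5 times. Beside those in the report, these were: organ factors higher, 4 to between 1 and 7; cilia genes higher, 3 to 1 or 0; mesothelial and epicardial factors lower, 2 to 1; retinoid genes lower, 2 to 4 or 5; complement and defence genes lower, 4 to 7; Hox genes higher, 2 to 4, and lower, 2 to 5 or 7; cell cycle genes lower, 0 to 2 without the top Scrublet scores; and single genes for stress (higher), cilia and organ factors (lower). The cause of these moves was not tested. Alternatives for the sides, and the one without the 15 Scgb-high cells, were chosen after seeing the data. Without those cells 1232 genes were higher and 1440 lower. The 15 cells were set apart by each of 6 clusterings, and 437 or 438 of the 438 cells on a side kept that side. Scrublet marked 3 cells as doublets, none mesothelial, so its ranking was used: without the top 5% of scores, 460 mesothelial cells and 1299 higher genes were left. No paired analysis was possible because each group has 1 library.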
